A study of Mus musculus with 10 samples.

Results

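The genes described here are those whose signal on both arrays labelled duct suprabasal stood clear of the signal on the 8 arrays of the other populations. The arrays were Affymetrix expression arrays of 5 cell populations purified by fluorescence-activated sorting, with 2 arrays per population. The tissue was the paw pad of female mice of the outbred strain CD1, all wild type. The populations were the suprabasal cells and the basal cells of the sweat duct, the myoepithelial cells and the luminal cells of the sweat gland, and the palmoplantar epidermis. No treatment or genetic change separated them. Both arrays of each population are labelled as biological replicates. The age of the mice, the sort markers and the number of animals behind an array were not given in the sources used here. Each gene was represented by the probe set with the highest mean over the 10 arrays, and it was chosen when its lower duct suprabasal signal was at least 300 and at least 1.5 times the highest of the other 8 arrays. This gave 74 of 12393 genes, which is 0.597% of them. In 58 of the 74 genes array 2 was at least 2 times as bright as array 1, and in the other 16, called even genes below, it was not. The values on these 10 arrays chose the genes, so their height in duct suprabasal cells is described without a test.

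The sweat duct carries fluid from the secretory coil to the skin surface and takes up salt on the way. Its wall has an outer basal layer and inner suprabasal cells that line the lumen. The dermis around duct and coil holds blood vessels lined by endothelial cells, which sense growth factors through receptor kinases and hold together through junction proteins. It also holds fibroblasts, which secrete the collagens and small proteoglycans of connective tissue.

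The names of the 74 genes were not only those of epithelial genes. Of the 58 genes that were brighter on array 2, 21 are known from blood vessels and 15 from matrix and fibroblasts, and the other 22 were placed in neither group. These roles were assigned after the values had been seen and were not assigned over all 12393 genes, so their background share is not known. What part other cell types had in the signal was not tested. The 16 even genes held 1 vascular gene, Esm1, and otherwise genes of epithelial surfaces, junctions, enzymes and other functions. For that reason the samples are called here the arrays labelled duct suprabasal, or duct suprabasal for short. In such bulk samples fewer cells of a type and less RNA per cell cannot be told apart.

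Promoter sequences of 4 vascular genes are shown because ETS factors are known regulators of endothelial genes. Some of their binding sites hold the word AGGAAG, called the core here. The sequences are those of RefSeq on GRCm38.p6, from 250 bases before to 50 bases after the transcript start, all on the + strand, at chr3:137340828-137341127 for Emcn, chr1:194938571-194938870 for Cd34, chr2:32646345-32646644 for Eng and chr13:113209409-113209708 for Esm1. Capitals mark the core, written AGGAAG or, on the other strand, CTTCCT. Shorter parts of this word were neither marked nor counted, so a window with 0 cores can still hold them.
Emcn: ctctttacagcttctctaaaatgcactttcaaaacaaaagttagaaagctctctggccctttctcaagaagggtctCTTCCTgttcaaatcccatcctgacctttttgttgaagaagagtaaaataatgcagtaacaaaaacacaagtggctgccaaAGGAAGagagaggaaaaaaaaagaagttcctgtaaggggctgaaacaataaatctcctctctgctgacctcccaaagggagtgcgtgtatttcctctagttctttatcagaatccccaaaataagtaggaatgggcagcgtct
Cd34: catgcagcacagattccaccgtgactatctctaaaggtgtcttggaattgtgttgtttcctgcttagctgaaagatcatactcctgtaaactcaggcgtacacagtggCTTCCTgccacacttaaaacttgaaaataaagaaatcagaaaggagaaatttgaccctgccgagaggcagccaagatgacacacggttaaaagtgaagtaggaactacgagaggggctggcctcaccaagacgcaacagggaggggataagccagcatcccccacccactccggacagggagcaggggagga
Eng: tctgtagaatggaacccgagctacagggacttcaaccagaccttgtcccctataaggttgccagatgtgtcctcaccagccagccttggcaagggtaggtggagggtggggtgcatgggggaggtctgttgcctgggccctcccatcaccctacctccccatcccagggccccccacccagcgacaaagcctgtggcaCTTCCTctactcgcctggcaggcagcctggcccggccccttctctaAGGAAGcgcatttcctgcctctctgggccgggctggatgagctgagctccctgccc
Esm1: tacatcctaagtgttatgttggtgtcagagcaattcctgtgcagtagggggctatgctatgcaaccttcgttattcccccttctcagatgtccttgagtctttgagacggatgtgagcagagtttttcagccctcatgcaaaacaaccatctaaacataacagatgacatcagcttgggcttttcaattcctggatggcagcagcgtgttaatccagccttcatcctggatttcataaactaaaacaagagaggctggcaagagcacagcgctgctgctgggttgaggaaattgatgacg
Emcn held cores that began 174 and 93 bases before the start, Eng held cores 52 and 6 bases before it, Cd34 held 1 core 142 bases before it, and the Esm1 window held 0. The table gave promoters for 33 of the 58 genes brighter on array 2 and for 16 of the 16 even genes. The core was present on either strand in 8 of 13 promoters of 11 vascular genes (61.5%), Esm1 among them, and in 1 of 9 promoters of matrix and fibroblast genes (11.1%). Over the genes brighter on array 2 it was present in 22 of 45 promoters (48.9%), and over the even genes in 8 of 19 (42.1%). All genes on the arrays had it in 33.8% of 12559 promoters, and the whole table in 35.4% of 32851. The word TGTTTAC, which forkhead factors bind, was found in 0 of 45 and 0 of 19 promoters, against 2.75% for the genes on the arrays. GGGCGG, a word bound by Sp and Klf factors, stood in 21 of 45 and 7 of 19 promoters, against 55.4%, and TATAAA stood in 8 of 45 and 2 of 19, against 9.80%. These shares describe letters in a short window, and a gene can have several promoters.

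The arrays were scaled alike: the mean signal, without the top and bottom 2%, was 500 on each of the 10 arrays, and the medians were 65.7 and 67.3 in epidermis and 92.7 to 120.1 elsewhere. The duct suprabasal arrays resembled each other least. Their log2 signals correlated at 0.907 over the 9320 genes tested, against 0.963 to 0.981 within the other populations, and 1873 genes differed more than 2-fold between them, against 505 to 830 elsewhere. Array 2 was the brighter array for 48.8% of all genes tested. Both duct suprabasal arrays lay above the 8 others in 563 genes, which is 4.54% of 12393. The rule applied to array 1 alone would choose 174 genes and to array 2 alone 361, so the 74 genes are 42.5% of the first set and 20.5% of the second.

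**Figure D1:**
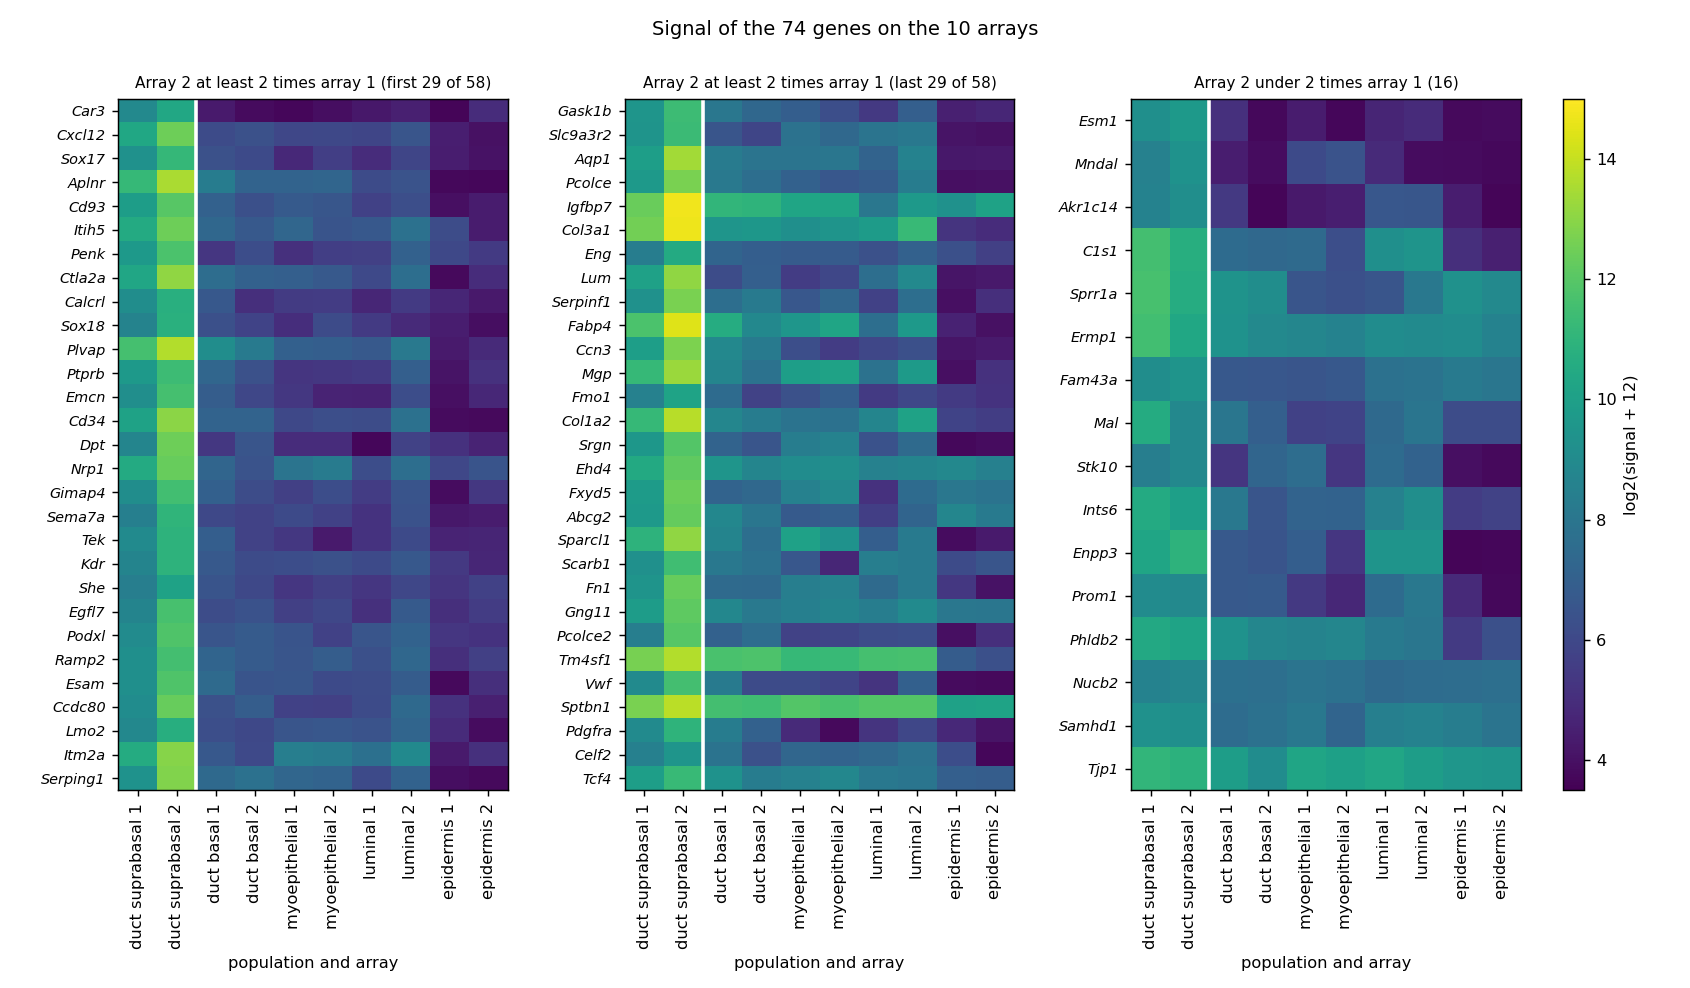
Signal of the 74 genes on the 10 arrays, as log2 of signal plus 12, with 1 row per gene and 1 column per array. The first 2 columns, duct suprabasal, are the brightest in every row because the rule chose them. Epidermis has the lowest mean for 50 of the 58 genes brighter on array 2, a count not made over all genes.

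Receptors of vascular growth factors and peptides come first among the vascular genes. Aplnr, the receptor of the peptide apelin, read 2376.1 and 11894.5 on the duct suprabasal arrays, 310.5 and 132.9 in duct basal, 130.7 and 142.0 in myoepithelial, 57.3 and 75.0 in luminal cells and 1.6 and 1.1 in epidermis. Its difference from the mean of the 4 other populations, 6.13 on the log2 scale (SE 0.51), was the largest of the 74. Kdr, the main receptor of VEGF-A, read 399.1 and 1942.0 in duct suprabasal, 92.4 and 57.5 in duct basal, 63.5 and 69.4 in myoepithelial, 55.4 and 90 in luminal cells and 30.4 and 14.4 in epidermis. Tek, the angiopoietin receptor, read 508.4 and 1953.3 in duct suprabasal and at most 111.8, in duct basal array 1, elsewhere. In all 3 genes array 2 was the higher duct suprabasal array, by 3.84 to 5.01 times.

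Co-receptors and related surface proteins had the same order. Nrp1, a co-receptor of VEGF and semaphorins, read 1487.7 and 5105.4 in duct suprabasal, and its highest reading elsewhere, 303.0, was on myoepithelial array 2. Calcrl and Ramp2 together form the receptor of adrenomedullin. Calcrl read 550.8 and 1702.8 in duct suprabasal against at most 89.6, and Ramp2 exceeded its highest other array 3.91-fold on array 1. Ptprb, a phosphatase that acts on Tek, read 806.6 and 2702.0 against at most 146.4. Cd93, an endothelial adhesion receptor, read 935.2 and 4099.6 against at most 123.6. Eng, a co-receptor of TGF-beta signalling, was the dimmest member on array 1, at 316.7, and read 1445.3 on array 2 and 136.8 on duct basal array 1.

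Proteins of the endothelial surface and its junctions read as follows. Plvap, which forms the diaphragms of capillary pores, read 3085.3 and 13151.5 in duct suprabasal, 557.6 and 291.0 in duct basal, 120.2 and 112.1 in myoepithelial, 93.6 and 270.4 in luminal cells and 8.2 and 17.0 in epidermis. Emcn, a sialomucin of capillaries and veins, read 569.4 and 3090.9 in duct suprabasal, 105.8 and 50.5 in duct basal, 29.2 and 13.1 in myoepithelial, 12.1 and 62.2 in luminal cells and 3.9 and 15.1 in epidermis. Cd34, a sialomucin of endothelium and also of dermal fibroblasts, read 1115.2 and 8181.9 in duct suprabasal, 129.8 and 129.6 in duct basal, 51.2 and 65.0 in myoepithelial, 60.3 and 210.7 in luminal cells and 2.1 and 2.0 in epidermis. The levels outside duct suprabasal were highest in duct basal array 1 for Plvap and Emcn and in luminal array 2 for Cd34. Esam, a junction protein, exceeded its highest other array 3.61-fold on array 1 and Podxl, another sialomucin, 4.10-fold. Aqp1, a water channel of capillary endothelium, read 984.2 and 10894.7 in duct suprabasal, an 11.1-fold step between the arrays that was the widest of the vascular genes.

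The transcription factors chosen were Sox17 and Sox18, which act in vessel development, and Lmo2, a partner of Tal1 in blood and endothelium. Sox17 read 625.3 and 2269.5 in duct suprabasal, 70.0 and 55.4 in duct basal, 16.3 and 38.1 in myoepithelial, 19.0 and 48.1 in luminal cells and 9.4 and 4.7 in epidermis. Sox18 read 385.4 and 1775.6 in duct suprabasal and 66.4 at most elsewhere. Among secreted vascular proteins, Egfl7, an endothelial matrix protein, read 404.3 and 3200.9 and at most 95.4 elsewhere. Vwf, the clotting factor that endothelium stores, read 499.1 and 2994.9 in duct suprabasal but 279.0 on duct basal array 1, where the second duct basal array read 57.3. She, an adaptor protein, read 332.7 on array 1, close to the lower limit.

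The 15 matrix and fibroblast genes had a median step of 7.56-fold between the duct suprabasal arrays, with a range of 3.77 to 13.4. The 21 vascular genes had a median of 4.61, with a range of 3.09 to 11.1 that overlaps it, and the other 22 a median of 4.8. Col3a1, a chain of fibrillar collagen, read 5965.7 and 26876.4 in duct suprabasal, 712.2 and 753.3 in duct basal, 587.1 and 687.5 in myoepithelial, 894.9 and 2454.8 in luminal cells and 25.0 and 19.1 in epidermis. Col1a2, a chain of type I collagen, read 2367.2 and 14110.2 in duct suprabasal, 425.1 and 306.9 in duct basal, 224.7 and 208.7 in myoepithelial, 415.8 and 1110.4 in luminal cells and 44.5 and 35.7 in epidermis. For both collagens luminal array 2 was the brightest of the 8 other arrays.

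Proteins that bind or process collagen were chosen with them. Lum, a small proteoglycan of collagen fibrils, read 1070.8 and 8613.3 in duct suprabasal, 59.2 and 115.4 in duct basal, 35.2 and 49.5 in myoepithelial, 189.0 and 468.0 in luminal cells and 5.9 and 7.4 in epidermis. Dpt, a dermal protein that binds the proteoglycan decorin, had the widest step of the 74 genes, 418.9 against 5628.7, and read 81.5 at most elsewhere. Pcolce and Pcolce2 enhance the trimming of procollagen, and their array 2 signals were 8.22 and 12 times those of array 1. The secreted inhibitors Serping1, of the complement pathway, and Serpinf1, of vessel growth, stepped up 11.3-fold and 10.7-fold. Cxcl12, a chemokine of stromal cells, read 1299.5 and 5680.5 in duct suprabasal and 4.3 to 80.4 on the other 8 arrays, so that its lower duct suprabasal signal was 16.2 times the highest other.

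Pdgfra, Mgp and Sparcl1 also had signal in a second population. Pdgfra, the PDGF receptor that marks fibroblasts, read 494.1 and 2027.4 in duct suprabasal, 305.5 and 121.5 in duct basal and at most 49.5 elsewhere. Mgp, an inhibitor of calcification, reached 1111.1 and Sparcl1, a matrix protein, 1060.8 in myoepithelial cells. Itih5, which stabilises hyaluronan, exceeded every other array by at least 7.16-fold. Fn1, the adhesive protein fibronectin, and Ccdc80, a secreted matrix protein, completed the group, with 7.56-fold and 9.63-fold steps.

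Among the 22 genes of neither group, Car3, a carbonic anhydrase known from muscle and fat, read 470.4 and 1325.5 in duct suprabasal and 0.7 to 19.1 on the other 8 arrays. Fabp4, a fatty acid carrier of fat cells and of capillary endothelium, read 3417.2 and 22498.8 in duct suprabasal, 1559.5 and 454.6 in duct basal, 738.8 and 1209.7 in myoepithelial, 186.6 and 826.5 in luminal cells and 12.4 and 4.0 in epidermis. Car3 and Esm1 were the 2 genes that lay below the 40th percentile of the array on all 8 other arrays. Penk, the precursor of enkephalins, read 840.7 and 3400.2 against at most 121.7. Ctla2a, a protease inhibitor, read 1248.8 and 8676.1 against at most 188.2. Gimap4, a GTPase known from lymphocytes, exceeded its highest other array 4.74-fold, Sema7a, a membrane semaphorin, 4.69-fold, and Itm2a, a membrane protein, 3.09-fold. Tm4sf1, a surface protein of endothelium and many epithelia, was bright everywhere but epidermis, at 6304.4 and 12981.5 in duct suprabasal, 2331 to 3503 in duct basal, myoepithelial and luminal cells, and 104.7 and 66.1 in epidermis. Celf2, an RNA-binding protein, at 2.02-fold, Tm4sf1 at 2.06-fold and Sptbn1, a spectrin, at 2.19-fold stood nearest to the 2-fold split.

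**Figure D2:**
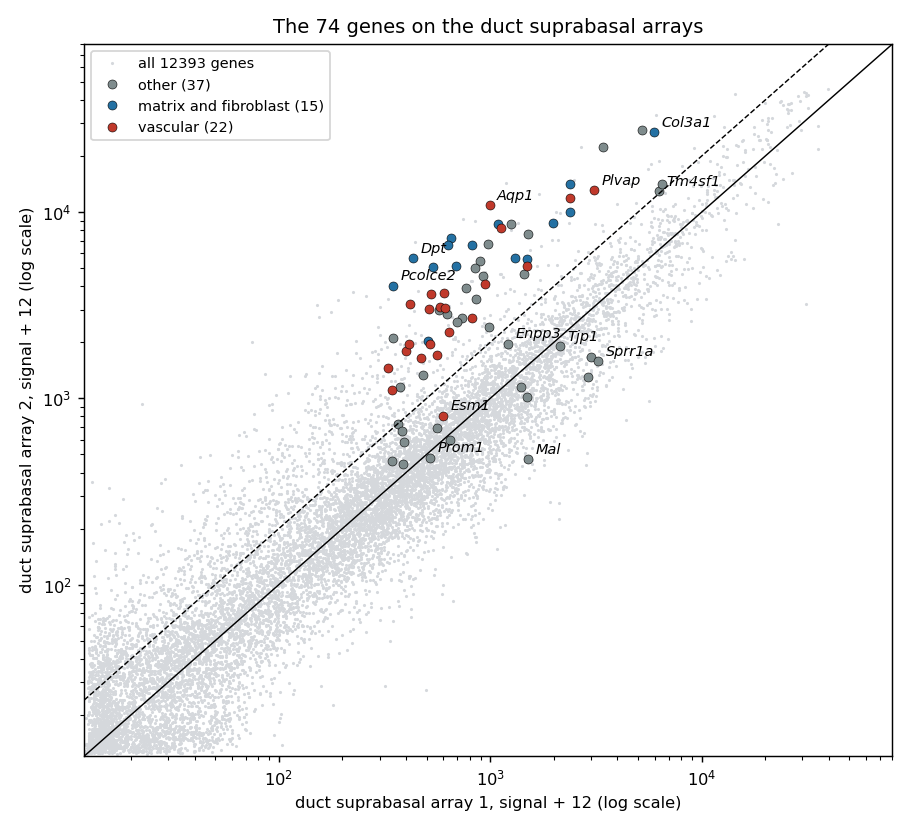
Signal plus 12 of every gene on duct suprabasal array 1 (horizontal, log scale) and array 2 (vertical, log scale), with the 74 genes coloured by role; the solid line marks equal signal and the dashed line 2-fold. Among the 74 genes Dpt lies farthest above the lines, at 13.4-fold, and Mal farthest below them, at 0.31-fold. The matrix and fibroblast genes overlap the vascular genes, at medians of 7.56-fold and 4.61-fold.

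The 16 even genes were not led by vessel or matrix genes, apart from the first of them. Esm1, a proteoglycan secreted by endothelial tip cells, had the largest separation of the 74: it read 587.5 and 796.2 in duct suprabasal, 21.9 and 1.5 in duct basal, 8.5 and 1.2 in myoepithelial, 13.6 and 18.2 in luminal cells and 1.7 and 2.3 in epidermis. Its lower duct suprabasal signal was 26.8 times the highest other. The array 2 signal was 1.36 times that of array 1, below the 3.09 to 11.1 of the other 21 vascular genes.

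Several even genes are known from the lumen side of epithelia. Prom1, a protein of apical membrane folds, read 509.1 and 468.0 in duct suprabasal, 93.8 and 94.5 in duct basal, 30.3 and 15.3 in myoepithelial, 170.2 and 267.0 in luminal cells and 16.9 and 1.3 in epidermis. Enpp3, a surface enzyme that splits nucleotides, read 1207.6 and 1954.3 in duct suprabasal, 684.9 and 688.3 in luminal cells, 28 to 109.2 in duct basal and myoepithelial cells and 0.6 and 1.0 in epidermis. Mal, which carries proteins to the apical membrane, read 1496.8 and 460.3 in duct suprabasal, 250.4 and 115.5 in duct basal, 40.1 and 43.5 in myoepithelial, 161.9 and 238.3 in luminal cells and 60.8 and 60.5 in epidermis. Its array 2 signal was 0.31 times that of array 1, the direction opposite to the vascular genes. Tjp1, the tight junction scaffold ZO-1, was bright in all populations, at 2135.6 and 1888.4 in duct suprabasal and 532.0 to 1240.3 elsewhere.

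Other even genes encode enzymes and proteins of barrier or nucleus. C1s1, a complement protease, read 2972.5 and 1653.2 in duct suprabasal, 587.2 and 690.4 in luminal cells and at most 170.6 elsewhere. Akr1c14, which reduces steroids, read 377.2 and 569.3 in duct suprabasal and 86.0 and 84.7 in luminal cells, with at most 31.0 elsewhere. Sprr1a, a precursor of the cornified envelope, read 3238.9 and 1569.4 in duct suprabasal, 677.3 and 551.0 in duct basal, 80.6 and 67.8 in myoepithelial, 80.1 and 266.6 in luminal cells and 620.8 and 463.6 in epidermis. The duct populations and epidermis were thus the brighter ones for Sprr1a, and luminal cells followed duct suprabasal for C1s1 and Akr1c14. Array 2 read 0.45 times array 1 for Ermp1, a metallopeptidase of the endoplasmic reticulum, 0.48 times for Sprr1a and 0.56 times for C1s1. Ints6, a subunit of the Integrator complex, read 1482.4 and 1006.3 in duct suprabasal and 369.0 and 564.5 in luminal cells.

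Of the remaining even genes Mndal had the second largest separation after Esm1, 4.85. Mndal, an interferon-inducible nuclear protein, read 368.8 and 652.2 in duct suprabasal and 55.2 and 76.0 in myoepithelial cells, and at most 17.3 elsewhere. Fam43a read 550.6 and 681.1 in duct suprabasal, 287.8 and 244.3 in epidermis and 206.0 and 220.8 in luminal cells. Phldb2, a protein of the cell cortex, read 1382.5 and 1138.7 in duct suprabasal and 650.1 and 430.8 in duct basal. Stk10, a kinase that acts on ERM proteins, Nucb2, the nesfatin precursor, and Samhd1, which degrades deoxynucleotides, exceeded their highest other array by 1.8, 1.62 and 1.55 times. The smallest separations inside the limit were those of Tjp1, 1.52, Tcf4, an E-box factor, 1.53, and Samhd1, 1.55, and the nearest genes outside were Adam10 at 1.497, Coch at 1.47 and Pitpnc1 at 1.46. At the signal limit Eng, at 316.7, Stk10 and She lay inside, and Iigp1 at 298.3, Meox2 at 297.9 and Mfap5 at 290.2 lay outside.

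Other probe sets of the same genes gave a second reading. In 34 of the 74 genes the arrays held 58 further probe sets, of which 43 were above the 8 other arrays on both duct suprabasal arrays and 20, of 16 genes, met the whole rule. In 13 genes at least 1 further probe set was not above all 8. The side of the 2-fold split was less stable: 7 of the 20 probe sets, of Celf2, Fabp4, Slc9a3r2, Sptbn1 and Tcf4, fell on the other side, Fabp4 with 1.62-fold in place of 6.58-fold. Gdf10, a secreted factor of the TGF-beta family, and Flt1, a VEGF receptor, missed the signal limit on array 1. Gdf10 read 280.6 and 1274.0 in duct suprabasal and at most 15.1 elsewhere, and Flt1 read 287.9 and 2169.0 against at most 40.6. Another probe set of Flt1 read 402.9 and 1613.0 against at most 38.2.

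Whether the same kinds of genes were higher beyond the chosen 74 was read from 21 gene lists. In the fit of all 10 arrays with limma and Benjamini-Hochberg adjustment, 823 of 9320 genes (8.83%) were higher in duct suprabasal than the mean of the 4 other populations and 290 (3.11%) were lower. The rule used this contrast, so nothing is read from the count of the 74 genes in it. A list gene that was chosen, or that passed the filter on low values only through the duct suprabasal arrays, had to be high there. The lists were therefore counted over the genes of neither kind, a choice made after the values had been seen. Of all 9088 such genes 663 were higher (7.30%), with a median log2 difference of 0.06. When 1 array was left out, the number of higher genes fell most without either luminal array, either epidermis array or duct basal array 2. The number of lower genes changed more in proportion. It was 170 without duct suprabasal array 1, 172 without duct basal array 2, 158 without myoepithelial array 2, 138 and 131 without luminal array 1 and 2, and 118 and 126 without epidermis array 1 and 2. After quantile scaling 510 of the 9088 genes were higher and 636 lower, with a median of -0.14. Over all 9320 genes 654 were then higher, in place of 823, and the median moved from 0.07 to -0.13 on the log2 scale.

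The endothelial list lost 9 of its 15 genes because the rule chose them and 3 because they passed the filter through duct suprabasal alone. One of the latter was Pecam1, an adhesion molecule of endothelial junctions, which read 250.4 and 1062.9 in duct suprabasal and at most 39.6 elsewhere. The 3 genes left were all higher, and 2 of 3 were without duct suprabasal array 2. Cdh5, the cadherin of endothelial junctions, read 220.3 and 2017.9 in duct suprabasal against at most 101.9 (log2 difference 3.87, SE 0.68, limma adjusted p = 0.00868), and Cldn5 and Robo4 differed by 3.30 and 2.96. The endothelial transcription factor list lost 2 genes to the rule and 4 to the filter. Its gene Erg was too dim to be tested, at 2.4 and 5.9 in duct suprabasal and at most 32.4 elsewhere. Of the factors left 3 of 4 were higher. Klf4 is also a keratinocyte factor, at 3828.3 and 6825.6 in duct basal cells. Sox7 read 2049.1 and 1970.2 there against 429.0 and 742.7 in duct suprabasal. The count was 1 of 4 after quantile scaling or without duct suprabasal array 2, duct basal array 2, myoepithelial array 1, luminal array 1 or epidermis array 1. Of vessel growth signalling genes 3 of 7 were higher, Vegfc, a growth factor of vessels (log2 difference 2.91, SE 0.31, limma adjusted p = 0.00164), Notch4 and Nrp2. The lymphatic list had 0 of 3 higher and 0 lower in limma, at a median of 0.61. The median was 0.88 without duct suprabasal array 1 and -0.25 without array 2. Flt4, which this list lost to the filter, read 75.1 and 392.6 in duct suprabasal and at most 52.2 elsewhere. The defining factor of the list, Prox1, read 2.8 and 4.4 in duct suprabasal and at most 20.3 elsewhere.

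The fibroblast list lost 6 of its 15 genes to the rule and 2 to the filter. Pi16, a marker of adventitial fibroblasts and 1 of the latter, read 62.3 and 1988.8 in duct suprabasal and at most 17.4 elsewhere. Of the 7 genes left 4 were higher, with a median of 2.59, and 7 of 7 were without duct suprabasal array 1. Mfap5, a microfibril protein, read 290.2 and 3065.7 against at most 129.4 (log2 difference 4.36, SE 0.77, limma adjusted p = 0.00877). Dcn, the proteoglycan decorin, did not pass (log2 difference 1.77, SE 0.60, limma adjusted p = 0.0880) and read 22038.7 and 18361.4 in duct basal cells against 6094.2 and 33119.6 in duct suprabasal. The fibrillar collagen and elastic fibre list lost none, and 7 of 13 were higher, but 3 of 13 without duct suprabasal array 2 and 12 of 13 without array 1. Of fibroblast secreted signals 1 of 4 was higher, Igf1, or 3 of 4 without duct suprabasal array 1. The pericyte list had 1 of 5 higher, Pdgfrb, with 0 higher and 1 lower without duct suprabasal array 2, 3 higher without array 1 and 2 without myoepithelial array 1.

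The remaining lists of cells around the duct gave few calls. No adipocyte gene was left to test: Fabp4 was chosen, Adipoq, a fat hormone, read 143.6 and 679.9 in duct suprabasal and at most 33.3 elsewhere, and the fat hormone Lep read 7.0 and 3.2. The immune list had 0 of 8 higher and 0 lower in limma, with a summed signal of 824.8 and 1788.2 in duct suprabasal against 5337.3 and 7307.9 in myoepithelial cells. Melanocyte genes were higher in 2 of 3, in 1 without duct basal array 1, and in 0 without luminal array 1, either epidermis array, or array 2 of duct basal, myoepithelial or duct suprabasal cells. Schwann cell genes were higher in 1 of 4, Mbp, and in 2 without duct suprabasal array 2 or either myoepithelial array, and the red blood cell list in 0 of 1, or 1 without luminal array 2. Mbp read 522.4 and 790 in duct suprabasal but 687.5 and 1095.2 in luminal cells. The melanocyte genes called higher, Dct and Tyrp1, likewise overlapped with their luminal values. The summed signal of the 15 endothelial genes was 8501.9 and 42109.1 in duct suprabasal against 201.1 to 2006.4 elsewhere. That of the 15 fibroblast genes was 18566.4 and 108410.5 against 1183.9 to 24483.8. These sums hold 9 and 6 of the chosen genes, so they are no separate measure of them, and what part other cell types had in the levels was not tested.

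The duct list tells how far the label was met. Of 10 tested genes of suprabasal and salt-absorbing duct cells, 6 were higher, with a median of 1.14. The count was 2 of 10 without array 1. Scnn1b and Scnn1g, subunits of the epithelial sodium channel, read 538.5 and 391.0, and 902.5 and 680.2, in duct suprabasal, but 419.2 and 479.1, and 494.7 and 746.5, in luminal cells. Scnn1g was higher than the mean of the other populations (log2 difference 2.49, SE 0.31, limma adjusted p = 0.00205) although its luminal and duct suprabasal values overlapped. Sgk1 was brighter on both luminal arrays, at 19962.7 and 29889.7 against 17954.8 and 12718.6. Krt6a was brighter on both epidermis arrays, at 13600 and 15528.1 against 13059.6 and 8107.1. Ceacam1 overlapped with luminal cells, at 13305 and 12710 against 13781.6 and 6117. Of the 6 called, Scnn1a alone, at 218.1 and 195.7 against at most 162.4, was above all 8 other arrays. Some defining duct genes were dim in every population, so their low signal is not particular to duct suprabasal. Krt77, a keratin of the sweat duct, read 146.9 and 16.6 in duct suprabasal and at most 85.8 elsewhere. The chloride channel Cftr read 0.4 and 1.9 against at most 18.7. Hsd11b2, which protects the mineralocorticoid receptor, read 43.5 and 33.5 against at most 40.3. No gene of this list was among the 74.

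The order of the duct suprabasal arrays differed between the epithelial lists. Array 2 was the brighter in 0 of 12 simple epithelium genes, at a median log2 ratio of array 2 over array 1 of -1.14, in 1 of 11 secretory coil genes, in 1 of 10 duct genes and in 4 of 11 epidermal differentiation genes. It was the brighter in 6 of 10 basal keratinocyte genes, at 0.22, and in 5 of 7 contractile genes, at 0.28. In the endothelial and fibroblast lists it was brighter in 15 of 15 each, at 2.29 and 2.86. The rule chose 9 and 6 of these genes and split them by this ratio, so their order is no separate reading. Without the chosen genes array 2 was brighter in 6 of 6 and 9 of 9, at medians of 5.39-fold and 7.89-fold. Of these, 3 and 2 passed the filter through duct suprabasal alone. Simple epithelium genes were higher in 5 of 12, in 8 without array 2, in 9 without myoepithelial array 1 and in 2 or 3 without duct suprabasal array 1, duct basal array 2 or any 1 luminal or epidermis array. Secretory coil genes were higher in 3 of 11, in 1 without duct suprabasal array 1 and in 6 without myoepithelial array 1. Among them was Best2, a chloride channel, which read 5146.8 and 3076.4 in duct suprabasal and 1725.5 and 2435.3 in luminal cells. Foxa1, a transcription factor, read 2038.4 and 781.4 against 794.4 and 830.4. Atp6v1b1, also called higher, read 4077.5 and 1867.1 against 10259.7 and 12450.3 in luminal cells. Of the simple epithelium genes called higher, Krt8, Krt18 and Cldn3 were brighter on both luminal arrays than on either duct suprabasal array. Krt7 and Cldn4 were not. Of epidermal differentiation genes 2 of 10 were higher beside the chosen Sprr1a, 4 without duct basal array 2 and 1 without duct suprabasal array 2. Basal keratinocyte genes were lower in 3 of 10, Trp63 among them (log2 difference -1.23, SE 0.17, limma adjusted p = 0.00340), and contractile genes in 4 of 7, or 2 of 7 without duct suprabasal array 2 and 1 of 7 with 1 in place of 12 added to the signal. Cell cycle and dissociation response genes had 0 called in limma in either direction of 13 and 11.

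**Figure D3:**
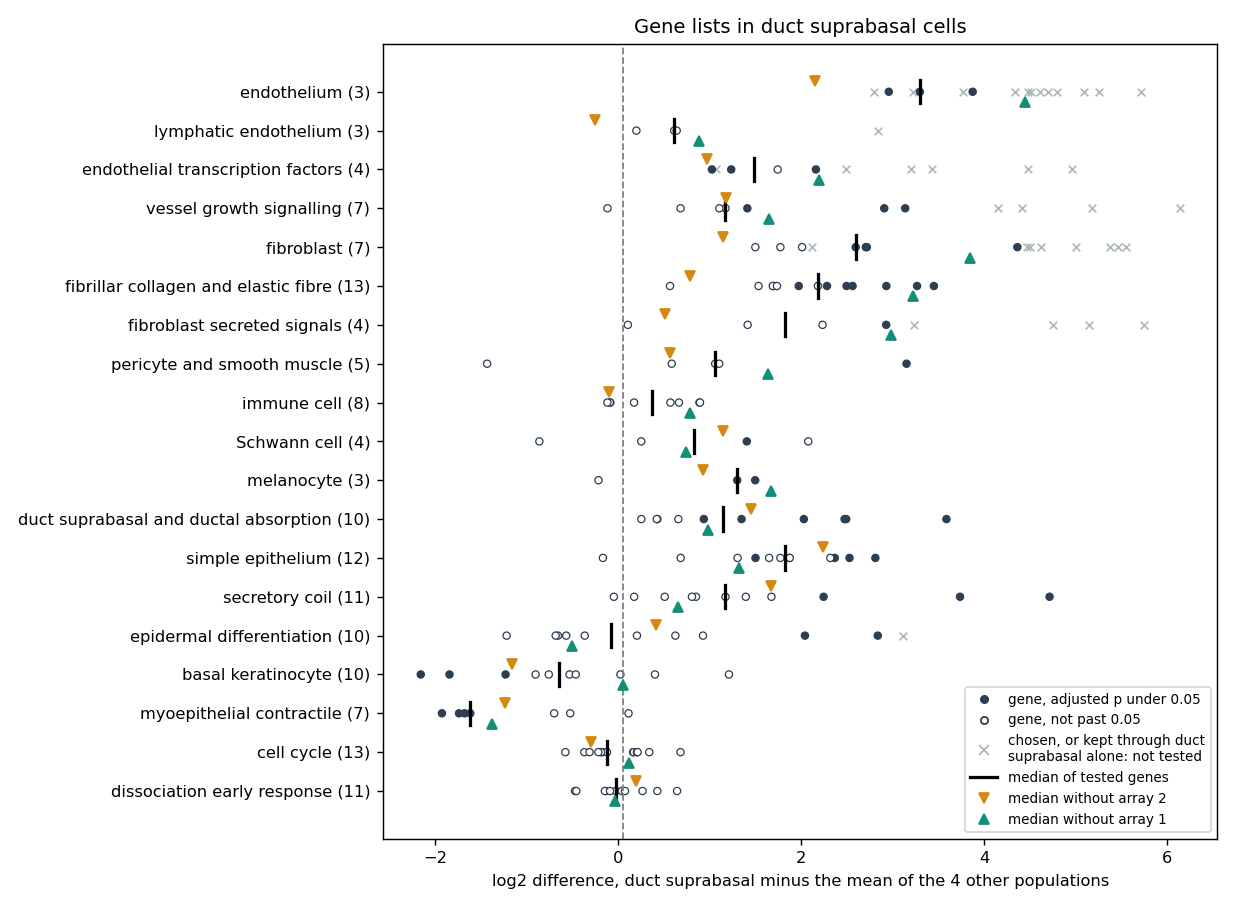
Log2 difference of duct suprabasal from the mean of the 4 other populations for each gene of the lists with at least 3 genes tested (number in brackets); crosses are genes that were chosen or passed the filter through duct suprabasal alone, filled points passed an adjusted p of 0.05, bars are medians of the tested genes, triangles are their medians without 1 duct suprabasal array, and the dashed line is the median of all such genes. The endothelial, fibroblast and fibrillar collagen medians are 3.30, 2.59 and 2.18, and without array 2 they are 2.15, 1.15 and 0.78.

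The levels of the 74 genes among the 4 other populations entered the rule only as an upper limit, and were tested in a fit of those 8 arrays alone. Of the 74 genes 70 passed its filter on low values, without Car3, Calcrl, Dpt and Esm1, and 55 differed among the 4 populations by limma's F test. The share was 71.9% over all 9158 genes tested, so the members' count stood near the background. Of the 70 genes 50 were lower in epidermis than in the mean of the other 3, against 35.1% of all genes, and 3 were higher, against 20.5%. Because the labels do not give the animals behind the arrays, these p-values measure the spread between arrays.

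Epidermis was the dimmest of the 4 in 50 of the 58 genes brighter on array 2 and in 10 of the 16 even genes. Such ranks of populations or arrays were not counted over all genes, here or below, so their background is not known. The epidermis arrays also had the lowest medians over all probe sets, 65.7 and 67.3. Fabp4 had the largest difference there (log2 difference -5.13, SE 0.57, limma adjusted p = 6.99e-05). It was followed by Tm4sf1 (-4.96, SE 0.17, limma adjusted p = 1.91e-07) and Col3a1 (-4.72, SE 0.32, limma adjusted p = 3.95e-06). The median over the tested genes brighter on array 2 was -1.90, against -0.24 for all genes, and 43 of those 55 were lower. On the epidermis arrays 43 and 45 of the 58 genes lay below the array's 40th percentile. The 3 genes higher in epidermis were Sprr1a (1.42, SE 0.36, limma adjusted p = 0.00811), Abcg2, a drug transporter (1.27), and Fam43a (1.09). Without epidermis array 1 the count of higher genes was 1.

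Duct basal cells were the next brightest population for 33 of the 58 genes brighter on array 2. In this population 22 of the 70 genes were higher than the mean of the other 3, against 17.6% of all genes, and 1 was lower, against 9.88%. Ccn3, a matricellular protein, had the largest difference, with 450.1 and 288.6 in duct basal against 5.9 to 66.1 in the other 3 (log2 difference 3.12, SE 0.32, limma adjusted p = 0.000178). Pdgfra (2.89, SE 0.47, limma adjusted p = 0.00221) and Plvap (2.36, SE 0.40, limma adjusted p = 0.00261) followed, then Fabp4, Aplnr and Tm4sf1 at 2.12, 2.01 and 1.93. The lower gene was Fam43a, at -0.86. The count of higher genes was 8 without duct basal array 1, and that of lower genes was 2 without duct basal array 1 or luminal array 1 and 0 without duct basal array 2.

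In myoepithelial cells 19 of the 70 genes were higher, against 25.5% of all genes, and 6 were lower, against 18.8%. Sparcl1 (3.10, SE 0.40, limma adjusted p = 0.000293), Mgp (2.83) and Srgn, a proteoglycan of secretory granules (2.62), had the largest positive differences, and Fabp4 (2.33), Mndal (2.16) and Itm2a (1.88) followed. The lower genes were Sprr1a, at -2.14, Scarb1, an HDL receptor, at -1.85, Pdgfra at -1.59, Mal at -1.39, Prom1 at -1.19 and Fam43a at -0.91. Without myoepithelial array 1 the count of higher genes was 11. Without array 2 it was 8, with 3 lower.

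In luminal cells 21 of the 70 genes were higher, against 22.3% of all genes, and 3 were lower, against 23.1%. The even genes gave 9 of these 21, from 15 tested, and the genes brighter on array 2 gave 12, from 55. Enpp3 (3.98, SE 0.39, limma adjusted p = 5.37e-05) and C1s1 (2.97, SE 0.33, limma adjusted p = 0.000102) had the largest differences, followed by Lum at 2.76, Col3a1 at 2.56, Prom1 at 2.45 and Akr1c14 at 2.29. The other even genes higher there were Ints6 (2.16), Stk10 (1.8), Mal (1.22), Samhd1 (0.71) and Fam43a (0.69). Luminal cells had the highest mean of the 4 populations in 9 of the 16 even genes, and duct basal cells in 3. The lower genes were Fxyd5, a subunit of the sodium pump, at -1.66, Abcg2 at -1.52 and Igfbp7, a secreted binding protein, at -1.43. Without luminal array 2 the count of higher genes was 11, and without luminal array 1 that of lower genes was 0. Whether the even genes and the others differ in this count was not tested.

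**Figure D4:**
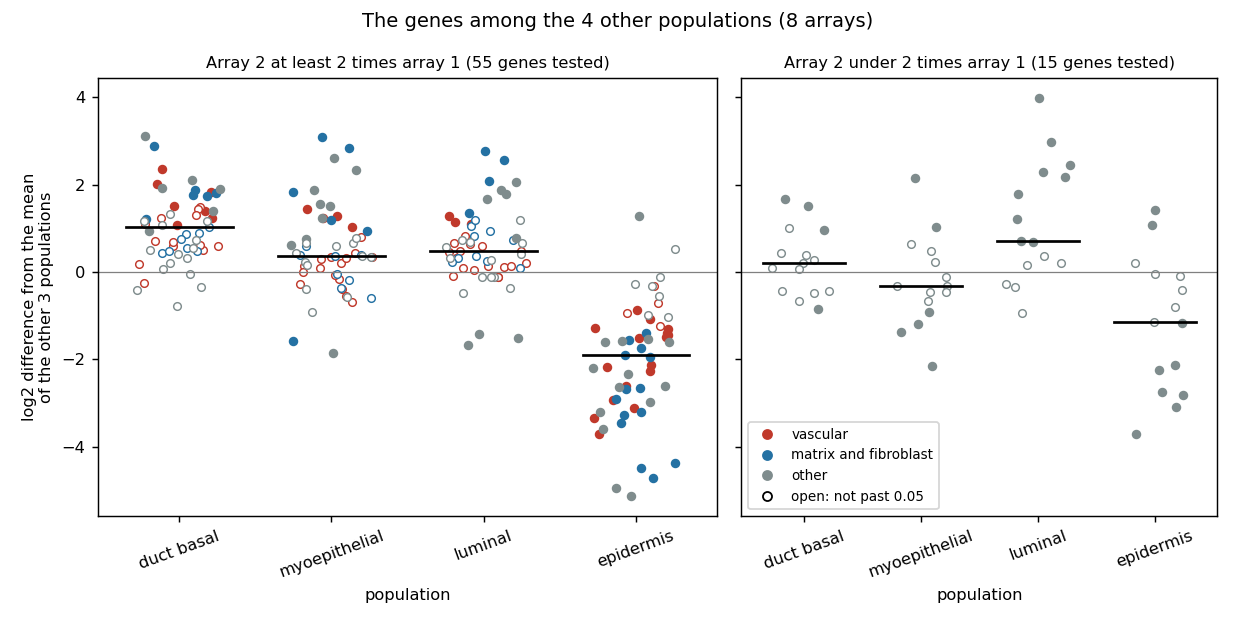
Log2 difference of each of the 4 other populations from the mean of the other 3, for the 55 tested genes brighter on array 2 (left) and the 15 tested even genes (right); each point is a gene coloured by role, filled where the adjusted p was under 0.05, and bars are medians. The epidermis points lie lowest, at medians of -1.90 and -1.15, and the luminal median of the even genes is 0.71.

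The signal of these genes outside duct suprabasal also differed between arrays of 1 population. As a percentage of its duct suprabasal mean, the median vascular gene read 6.15% and 3.83% on duct basal array 1 and 2, 3.33% and 2.81% in myoepithelial, 1.90% and 5.29% in luminal cells and 0.84% and 0.83% in epidermis. The median matrix and fibroblast gene read 5.16% and 3.79% in duct basal, 2.73% and 2.35% in myoepithelial, 2.52% and 5.72% in luminal cells and 0.17% and 0.26% in epidermis. The 15 even genes other than Esm1 read more, 21.1% and 19.3% in duct basal, 10.8% and 10.4% in myoepithelial, 29.7% and 33.0% in luminal cells and 3.46% and 5.38% in epidermis. The rule sets an upper limit to these percentages. Duct basal array 1 was the brightest of the 8 arrays for 25 of the 58 genes brighter on array 2 and luminal array 2 for 19.

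Within luminal cells array 2 exceeded array 1 in 54 of these 58 genes, or 93.1%, against 46.8% of all genes tested. It did so in 15 of 15 matrix and fibroblast genes, at a median of 2.61-fold, in 20 of 21 vascular genes, at 2.25-fold, and in 10 of the 16 even genes, at 1.09-fold. Within duct basal cells array 1 exceeded array 2 in 19 of 21 vascular genes, at a median of 1.61-fold, but in 7 of 15 matrix and fibroblast genes, at 0.945. All genes tested had array 1 above array 2 in 57.0% of cases in duct basal cells. Vascular and matrix genes were thus both brighter on luminal array 2. This was not particular to them. Immune genes were brighter there in 8 of 8, at 3.70-fold, and contractile genes in 7 of 7, at 1.86-fold. Basal keratinocyte genes were so in 8 of 10, at 1.56-fold. Simple epithelium genes were brighter there in 8 of 12, at 1.04-fold, and dissociation response genes in 2 of 11, at 0.55-fold. In duct basal cells the vascular genes, 19 of the other 22 and the even genes leaned to array 1, and the matrix genes did not. The genes of a group share the array they were read on and are not independent of each other, so no test is given.

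**Figure D5:**
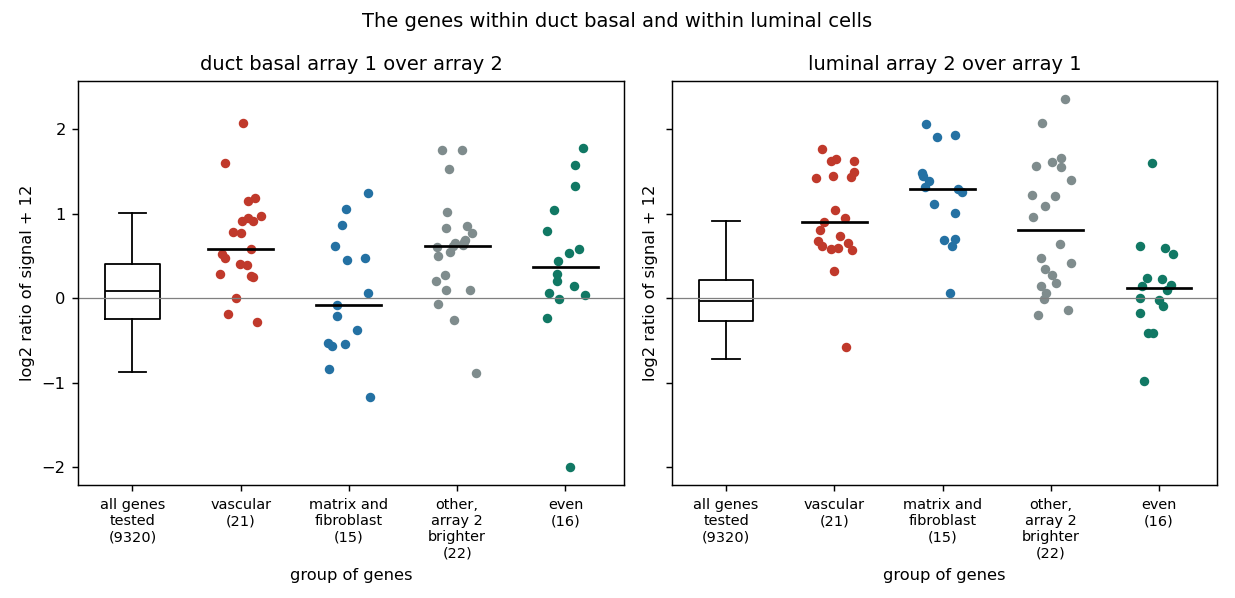
Log2 ratio of signal plus 12 between the 2 arrays of duct basal cells (left, array 1 over array 2) and of luminal cells (right, array 2 over array 1) for all genes tested (box with whiskers at the 5th and 95th percentiles) and for the groups of the 74 genes (points, with the median as a bar). The vascular points lie above 0 in both panels, in 19 and 20 of 21 genes, and the matrix and fibroblast points lie above 0 in 7 of 15 genes in duct basal and 15 of 15 in luminal cells.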

How the data were processed

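The deposited values were MAS5 signal intensities, per the submitters' processing notes, of 10 Affymetrix arrays hybridised with labelled RNA of sorted cells, 2 arrays for each of 5 populations. They were linear intensity values from 0.1 to 72213.2, scaled by the authors; the MAS5 version was not given in the sources used here. Of 22690 probe sets, 64 were controls, 20380 had a single gene symbol in the platform annotation, 691 had several and 1555 had none. The single-symbol sets gave 12393 genes, each taken from its brightest probe set. Arrays give no counting interval; their number limits the precision.

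Tests used limma 3.58.1 in R 4.3.3 on log2(signal + 12), where 12 is the 20th percentile of all values, with a variance trend and Benjamini-Hochberg adjustment over all genes tested at 0.05. Fold changes of dim genes are understated on this scale. Genes were kept when they exceeded the array's 40th percentile on at least 2 arrays, which left 9320 genes in the fit of all 10 arrays and 9158 in the fit of the 8 arrays outside duct suprabasal. The scripts were tested on simulated data. Genes named are the 15 with the widest separation in each pattern, those in a list, the 5 markers given for the samples, the 3 on each side of the limits, up to 6 per contrast, and others by role. The 74 genes and the lists were chosen with earlier results of these data known. Alternatives changed the limits, the scaling, the added 12, the filter, the probe set, the fit and the arrays used.

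Same-numbered arrays of different populations deviated together weakly: the correlations of their deviations ran from 0.121 to 0.357 over the 6 pairs of sweat duct and gland populations and from 0.026 to 0.088 over the 4 pairs with epidermis. Not every pair passed 0.1, so the numbers were not taken as pairs.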

Additional observations from a re-analysis of the deposited data

Results flagged for a closer look

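No comparison above used the 2246 probe sets that carried no single gene symbol. Of these, 7 met the rule, 2 with several symbols and 5 with none, and 5 of the 7 were at least 2 times as bright on duct suprabasal array 2. The brightest, which has no symbol here, read 6070.9 and 31490.3 in duct suprabasal and at most 238.8 elsewhere. A probe set that the annotation assigns to both Ctla2b and Ctla2a read 903.9 and 7529.7 against at most 193.4. Another, assigned to both Ly6c2 and Ly6c1, read 5998.6 and 20364.9 against 3214.5 on duct basal array 1.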

How the results depend on the processing

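Which genes were chosen depended on the limits. With a signal limit of 150 there were 126 genes, 99 of them brighter on array 2 and 27 even; with 600 there were 43, 36 and 7. A factor of 1.2 in place of 1.5 gave 35 even genes and a factor of 2 gave 6. Quantile scaling gave 70 genes, 68 of them among the 74. Leaving out 1 array gave 74 to 361 genes, 58 to 60 and 16 to 21 in the 2 patterns (361 without duct suprabasal array 1 and 174 without array 2, where the split cannot be made). Leaving out 1 array gave 555 to 820 higher and 118 to 376 lower genes in duct suprabasal, and 59 to 85 list genes higher, the chosen ones included, against 78 with all arrays. Lower genes numbered 636 after quantile scaling, which also moved the median log2 difference of all genes in epidermis from -0.24 to 0.08. With the replicate block, 491 genes were lower and 1113 higher, among them 9 of 12 simple epithelium and 5 of 11 secretory coil genes in place of 5 and 3; the labels do not pair the arrays.

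Among the other 4 populations, a filter at the 60th percentile left 31 genes past the F test, 13 higher in duct basal cells and 25 lower in epidermis. Fitting all 10 arrays gave 8 higher in duct basal, 9 higher in myoepithelial and 0 lower in luminal cells, and quantile scaling gave 2 lower in duct basal. Leaving out 1 array gave 42 to 57 past the F test; 8 to 27 higher and 0 to 2 lower in duct basal, 8 to 20 and 3 to 8 in myoepithelial, 11 to 22 and 0 to 4 in luminal cells, and 1 to 4 and 39 to 55 in epidermis. The cause of these shifts was not tested, apart from fewer genes or arrays tested. In all 834 values stayed within 1.5 times the main count and 98 did not, 62 of these being counts within lists. With 2 arrays per population no value can be called an outlier, and dim signals near 12 carry little order.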
